A study of Mus musculus with 9 samples.

Results

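The comparison described here sets MK4 megakaryocytes against MKP megakaryocytes in thrombopoietin culture, with the stage that the labels name MKP as the baseline. It rests on 2 MKP and 2 MK4 arrays, 4 of the 9 arrays of the series, placed by their titles. The comparison itself was picked with earlier values known: it skips MK3 and leaves out the MK6 arrays for their uneven 3' to 5' signal ratios, a measure of RNA quality. All are Affymetrix MOE430A expression arrays hybridised with RNA of primary mouse megakaryocytes. Bone marrow or fetal liver cells were grown with thrombopoietin, and subpopulations rich in megakaryocytes were sorted by high surface CD41 and by forward scatter, a measure of cell size. All stages share the cytokine and the measures used for the sort, and there is no untreated group. Time in culture, tissue of origin and size gate are not stated to be the same in MKP and MK4. The numbers 3, 4 and 6 in the stage names MK3, MK4 and MK6 match the culture days named in the study's design text, which gives no separate day for MKP. The labels name no strain, genotype, age, or tissue of origin for any array. The second array of each stage is called a replicate, without saying whether it came from a separate culture. The p-values below therefore measure the spread between these arrays, which may be technical.

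Megakaryocytes are the bone marrow cells that make platelets. Under thrombopoietin they leave the cell cycle of a dividing progenitor for endomitosis, in which DNA is copied without cell division, and they build the surface receptors, granules and membrane systems that platelets inherit. At the end of the process they extend proplatelets, microtubule-filled extensions from which platelets are released into the blood.

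8264 of 12393 genes named on the array passed a filter on low signal and were tested, each through 1 probe set. Values are the deposited MAS5 signals after scaling every array to a common level, and differences are MK4 minus MKP on the scale of log2(signal + 15.2), followed by their standard error in a limma model of the 2 MKP, 2 MK3 and 2 MK4 arrays. On this scale a fold understates the change of dim genes. The MKP arrays correlated with each other across genes at r = 0.966 and the MK4 arrays at r = 0.941, while the MK3 arrays gave 0.919, below the 0.944 and 0.951 of the second MK3 array with the MK4 arrays. The 2 MK3 arrays thus stood apart from each other, and they enter the results through the spread that the distance between them adds. These correlations are across genes, which are not independent replicates. The 3' to 5' signal ratios of the MKP and MK4 arrays ran from 0.957 to 1.09 for the actin control and from 0.805 to 0.957 for Gapdh. With arrays, the number of arrays limits the precision, and 2 a stage is the least that gives a spread.

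In that model of 6 arrays no gene reached a Benjamini-Hochberg adjusted p below 0.05. The count was 0 higher in MK4 (0% of the genes tested) and 0 lower (0%), and the lowest adjusted p was 0.166. Before adjustment 1002 genes had a limma p below 0.05, of which 479 were higher in MK4 (5.8% of the genes tested) and 523 lower (6.33%). Fitted on the 4 MKP and MK4 arrays alone, limma called 39 genes higher (0.472%) and 17 lower (0.206%) at an adjusted p below 0.05. Of these 56 genes, 55 also had an unadjusted p below 0.05 in the model of 6 arrays. Both fits share the MKP and MK4 arrays and give each gene the same difference, so this adds nothing to the calls. In 33 of the 39 higher genes the first MK3 array lay nearer the MKP mean than the MK4 mean, as did the second MK3 array in 2 of them. For the 17 lower genes those counts were 7 and 8. The gene counts below use the unadjusted p of the 6-array model as a description, a choice made after its adjusted count was known to be 0, and "called", "rose" and "fell" are kept for the 56 genes of the 4-array fit, whose spread comes from 2 pairs of arrays alone. Both MK4 arrays lay above both MKP arrays for 1859 genes (22.5%) and below both for 2113 (25.6%), and the median difference over all genes tested was -0.01.

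**Figure D1:**
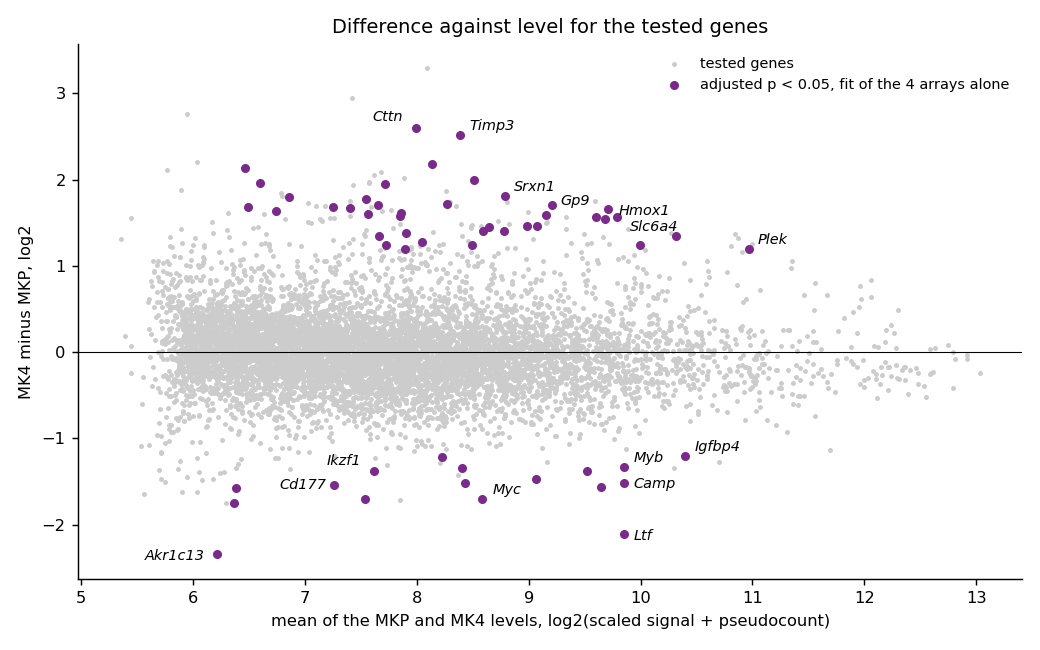
Each point is a tested gene, with the mean of its MKP and MK4 levels on the horizontal axis and its MK4 minus MKP difference on the vertical axis, both in log2 units. Purple points are the 39 higher and 17 lower genes called when the 4 MKP and MK4 arrays are fitted alone, and Timp3 and Cttn lie at the top with Akr1c13 and Ltf at the bottom.

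The largest difference upward among the genes with a low unadjusted p and no overlap of arrays was in Cd5l, a scavenger receptor family protein secreted by macrophages. It read 70.9 and 72.7 on the MKP arrays, 766 and 952 on the MK3 arrays and 391 and 1768 on the MK4 arrays, a difference of 3.29 ± 0.56 (limma adjusted p = 0.192 with 6 arrays and 0.0551 with 4). Arg1, the arginase of macrophages and liver, read 50.6 and 43.04 on the MKP arrays against 98.01 and 1997 on the MK4 arrays. In both genes the MK4 arrays lay above the MKP arrays and far from each other, with the second MK4 array the higher. The largest called difference upward was in Cttn, which encodes the actin-binding protein cortactin. It read 53.1 and 141 on the MKP arrays and 620.1 and 599 on the MK4 arrays. It differed by 2.60 ± 0.91 on the log2 scale (limma adjusted p = 0.318 with 6 arrays, the fit that gave this error, and 0.0355 with 4). Its 3 other probe sets differed by 1.38, 1.66 and 1.81. Cavin2, a coat protein of caveolae, went from 139.7 and 201 to 782 and 648, and Serpinb2, an inhibitor of plasminogen activators, from 87.8 and 155 to 592 and 576. In these 3 genes the MK4 arrays lay close together and well above the MKP arrays, the first MK3 array read 67.8, 139 and 119, and the second read 881, 608 and 577. Among the remaining genes of the 15 largest, the macrophage metalloproteinase Mmp12, the ubiquitin ligase Fbxo32, Clca3a1, Ppp1r3f and the myeloid receptor Trem2 were below the filter of 46.7 on both MKP arrays. They passed it through the MK4 arrays alone, so the size of their difference is uncertain. A second probe set of Trem2 differed by -0.05.

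The largest difference downward was in Akr1c13, an aldo-keto reductase. It read 144 and 161 on the MKP arrays, 20.3 and 19.96 on the MK3 arrays and 21.3 and 14.5 on the MK4 arrays, below the filter on the last 4. It fell by 2.35 on the log2 scale (limma adjusted p = 0.0286 with 4 arrays). Akr1c13 passed the filter through the MKP arrays alone, so the size of its fall is uncertain. Hmga2, an architectural chromatin protein of fetal and dividing cells, read 1179.6 and 1577 on the MKP arrays and 484 and 417 on the MK4 arrays (adjusted p = 0.0355). Its 2 other probe sets differed by -1.94 and -3.27, more than the -1.57 of the probe set that stands for the gene. Ramp1, a partner of the calcitonin receptor-like receptor, read 659.6 and 487 against 159 and 224, and Asprv1, a protease known from skin, 310.0 and 328 against 105 and 72.2. All 4 genes were also lower on both MK3 arrays than on either MKP array, at 332 and 606 for Hmga2, 223 and 201 for Ramp1 and 176 and 78.1 for Asprv1. Others among the 15 largest differences downward were dim: Ccnb1ip1, Abca2, Arap3, Knop1, Exd2 and Mapk13 were below the filter on both MK4 arrays. They passed it through the MKP arrays alone, so the size of their difference is uncertain. Of these dim genes Ccnb1ip1 and Mapk13 are among the genes called lower. The predicted gene 1110008P14Rik differed by -1.71 ± 0.39 on its brightest probe set and by -0.23 and -0.19 on its other ones.

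Receptors and adhesion molecules of platelets were the megakaryocyte group with the most members higher in MK4. Of 33 listed genes, 27 were tested and 19 had an unadjusted p below 0.05, all of them higher, against 5.8% of all genes; the median difference of the list was 1.05. Both MK4 arrays lay above both MKP arrays for 25 of the 27, against 22.5% of all genes. These are the genes by which the label of the samples can be checked. Itga2b, the CD41 chain of the fibrinogen receptor by which the cells were sorted, read 1301 and 979 on the MKP arrays, 977 and 2749 on the MK3 arrays and 3422 and 2531 on the MK4 arrays, so the megakaryocyte integrin was present from the first stage and 2.59-fold higher in MK4. Its partner chain Itgb3 read 262 and 269.6 and then 803 and 435. Gp1ba and Gp6 were not analysed here.

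The von Willebrand factor receptor is built from several chains, of which 3 were measured, and all 3 were higher. Gp9 read 358 and 272 on the MKP arrays, 328 and 1420.3 on the MK3 arrays and 1115 and 989 on the MK4 arrays, a 3.25-fold difference (limma log2 difference 1.70 ± 0.55, adjusted p = 0.0286 with 4 arrays and 0.281 with 6). Gp1bb went from 461 and 413 to 1569.7 and 1115 (adjusted p = 0.0394 with 4 arrays), although a second probe set of this gene differed by only 0.30. Gp5 read 370.4 and 461 against 1173 and 881, without being called (adjusted p = 0.0551). The MKP and MK4 arrays of each chain did not overlap, and the second MK3 array was higher than both MK4 arrays in all 3, while the first stayed near MKP level. Clec1b, the podoplanin receptor CLEC-2, rose from 243 and 269 to 711 and 691, and Slamf1, a homophilic receptor of the SLAM family, from 315 and 303 to 894 and 857. Treml1, a receptor stored in alpha granules, read 684 and 463 against 1919.9 and 1225 and was not called (adjusted p = 0.0675).

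Receptors for soluble agonists lay in the same direction. P2ry1, a receptor for ADP, read 82.7 and 123 on the MKP arrays and 335 and 235 on the MK4 arrays, and P2ry12, the other ADP receptor, 40.5 and 50.5 against 93.2 and 83.7, near the filter in MKP. The thrombin receptor family gave 514 and 432 against 1515 and 877 for F2rl2, 591 and 819 against 1665 and 1173 for F2r and 112 and 113 against 314 and 145 for F2rl3. Only F2rl2 of these 3 had an unadjusted p below 0.05. Cd36, a thrombospondin and lipid receptor that macrophages carry too, had the largest difference of the list at 2.02 ± 0.38. Its signals were 102 and 102 on the MKP arrays and 288 and 734 on the MK4 arrays, which lay far apart. Without single arrays, 8 of the 27 members had an unadjusted p below 0.05 when the second MKP array was left out, 9 without the first MK4 array, 10 without the first MKP array and 14 without the second MK4 array, while the median stayed between 0.96 and 1.07.

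**Figure D2:**
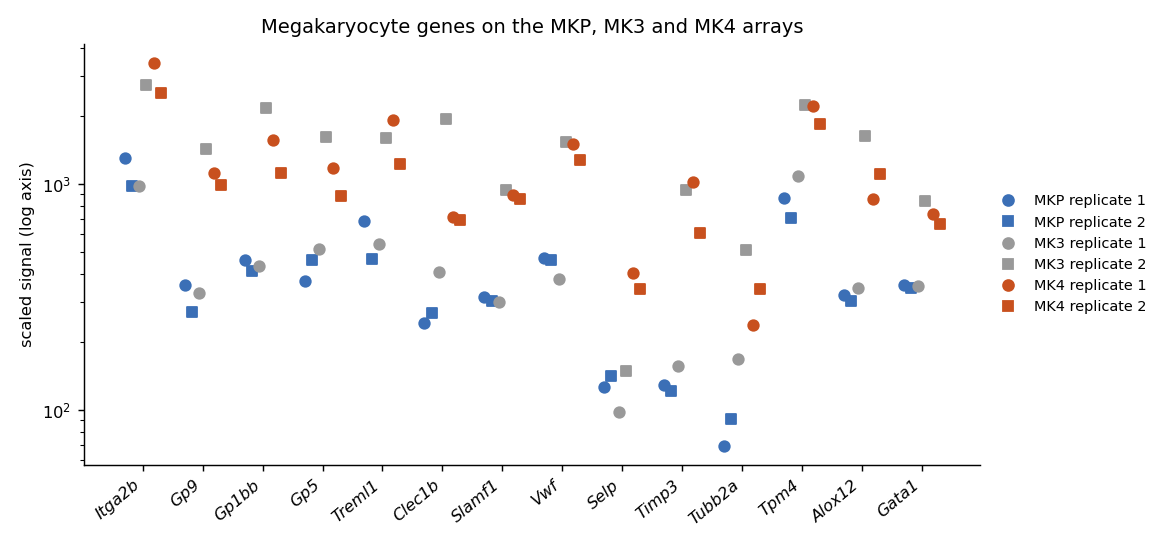
Scaled signals on a logarithmic axis for 14 megakaryocyte genes on the 2 MKP (blue), 2 MK3 (grey) and 2 MK4 (orange) arrays, one point an array. In each gene shown both MK4 arrays lie above both MKP arrays, and in most of them the first MK3 array (grey circle) lies near the MKP arrays and the second (grey square) near or above the MK4 arrays.

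Genes that carry signals from these receptors were higher in a smaller share, a difference between lists that was not tested. Of 30 tested signalling genes, 11 were higher and 1 lower by the unadjusted p, against 5.8% and 6.33% of all genes, with a median difference of 0.51. The count higher was 6 without the first MKP array or without the first MK4 array, and 7 without the second MKP array. Gnaz, a G protein alpha subunit found in platelets, had the largest difference: 123 and 94.2 on the MKP arrays, 484 and 282 on the MK4 arrays and 1.65 ± 0.53. Lat, an adaptor of the collagen receptor, read 427 and 662 against 1386 and 1190.3. Rgs18, a brake on G protein signalling, read 131 and 345 against 589 and 644, with MKP arrays far apart and an unadjusted p of 0.0646. The nitric oxide receptor, which restrains platelets, is a dimer of 2 guanylate cyclase chains. Gucy1b1 rose from 137 and 148 to 363 and 326 and was called (adjusted p = 0.0455 with 4 arrays), and Gucy1a1 went from 81.5 and 109.9 to 230.4 and 163. Of the enzymes that make signalling lipids, Alox12, the platelet 12-lipoxygenase, rose from 323 and 304 to 855 and 1106 (adjusted p = 0.0294 with 4 arrays). The thromboxane synthase Tbxas1 went from 251 and 162 to 692 and 476. Lta4h, which makes leukotriene B4 and is active in neutrophils, read 1315 and 1076 against 852 and 746, lower by the unadjusted p, while its other probe set differed by 0.30. Of the 9 tested eicosanoid genes 2 were higher and 1 lower by that p, against 5.8% and 6.33% of all genes.

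Cargo of the alpha granules, the store from which platelets release adhesive proteins and growth factors, was higher in 12 of 22 tested members by the unadjusted p, against 5.8% of all genes, and lower in none. The median difference was 0.54, and 4 members were called, against 0.472% of all genes. Without the second MKP array or the first MK4 array 6 members passed, without the first MKP array 7, and without the second MK4 array 8. Timp3, an inhibitor of matrix metalloproteinases, read 129 and 120.4 on the MKP arrays, 157 and 936 on the MK3 arrays and 1014 and 607 on the MK4 arrays, a 5.72-fold difference and the largest of the list (adjusted p = 0.0286 with 4 arrays). Its 3 other probe sets differed by 0.91, 1.44 and 1.63. Vwf, the adhesive protein for which that receptor is named, rose from 472 and 461 to 1505 and 1276. Selp, the P-selectin of the granule membrane, rose from 125 and 140.3 to 402 and 341 and read 97.7 and 148 on the MK3 arrays, so that here neither MK3 array had reached the MK4 level. The coagulation factor F5 rose from 224 and 214 to 563 and 512. The chemokines that fill these granules were abundant from the start: Ppbp read 1723 and 1878 against 3819 and 3697, a 2.08-fold difference, and Pf4 4314 and 4183 against 6493 and 5453, 1.40-fold. Ecm1, an extracellular matrix protein, read 149.6 and 185 against 352 and 930.2, with most of the difference on the second MK4 array.

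Dense granules, which hold serotonin, ADP and calcium, gave a median near that of all genes. Of 15 tested genes of their assembly 2 were higher by the unadjusted p, against 5.8% of all genes, and none lower, and the median difference was -0.03. Rab27b, the small GTPase that brings these granules to the membrane, read 322 and 314 on the MKP arrays against 976 and 679 on the MK4 arrays (1.31 ± 0.38), and Hps4, a subunit of a complex for lysosome-related organelles, 183 and 177 against 294 and 296. Hps1, the partner of Hps4 in that complex, read 121 and 80.6 against 53.7 and 78.8 and did not pass.

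The cytoskeleton list of proplatelet formation had a median difference of 0.28, and 4 of 32 tested genes were higher by the unadjusted p with none lower, against 5.8% of all genes. That count was 2 without the first MKP array, 7 without the second MK4 array and 11 without either MK3 array. Tubb2a, a beta tubulin, rose from 69.3 and 90.8 to 237 and 343 (adjusted p = 0.0394 with 4 arrays), and the tropomyosin Tpm4 from 868 and 709 to 2208 and 1848 (0.045). Parvb, an adaptor of integrin adhesions, read 40.8 and 113 on the MKP arrays, which differed from each other more than the stages did, and 219.9 and 117 on the MK4 arrays. Vinculin, Vcl, read 534 and 664 against 1416 and 1152 without an overlap and had an unadjusted p of 0.0627, with MK3 arrays at 638 and 2355, and its other probe set differed by 0.34. Tubb1, the tubulin of platelets, was not analysed here.

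**Figure D3:**
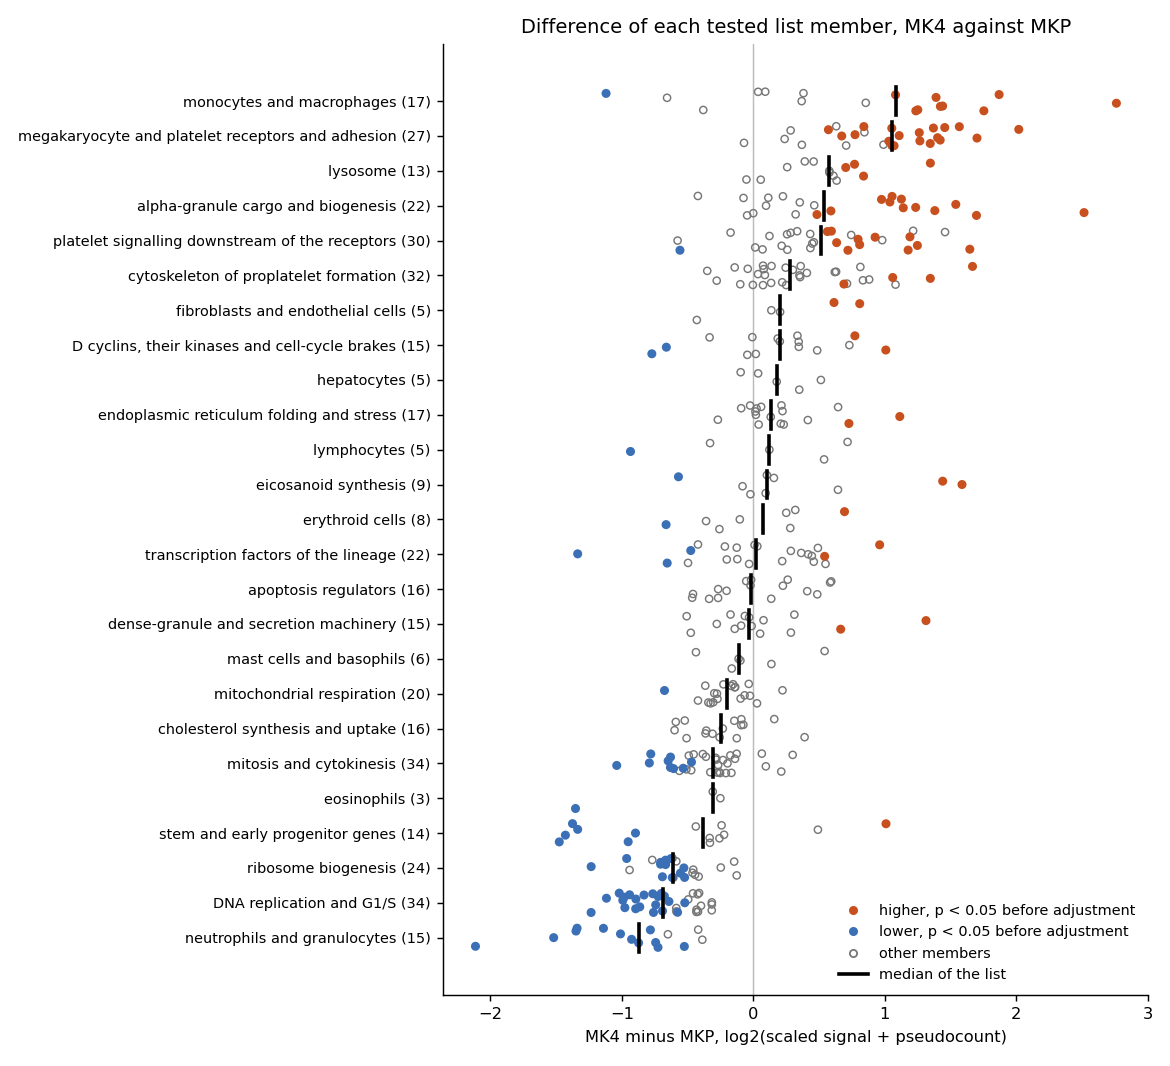
MK4 minus MKP differences (horizontal axis, log2) of the tested members of 25 gene lists, with the number tested after each name and the lists ordered by their median (black bar). Filled points have an unadjusted p below 0.05 in the model of 6 arrays; the platelet receptor and macrophage lists lie farthest to the right and the neutrophil, replication and ribosome lists farthest to the left.

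Transcription factors of the lineage lay to neither side as a group, with a median of 0.02. By the unadjusted p 2 were higher and 3 lower of 22, against 5.8% and 6.33% of all genes. Gata1, the zinc finger factor of the megakaryocyte and red cell lineages, read 355 and 347 on the MKP arrays, 351 and 839 on the MK3 arrays and 736 and 662 on the MK4 arrays (0.96 ± 0.36). Gata2, its counterpart in progenitors, read 839 and 763 against 639 and 496 and did not pass. Nfe2, the factor of late platelet genes, read 954 and 1007 against 1099 and 1192, a difference of 0.22 ± 0.44, within its error, and Fli1 read 143 and 348 against 316 and 306 with overlapping arrays and a difference of 0.14 on its other probe set. Ldb1, the adaptor that joins Gata1 complexes, read 339 and 313 against 240.2 and 169 (-0.65 ± 0.23).

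Stem and early progenitor genes were lower, 6 of 14 by the unadjusted p against 6.33% of all genes, with 1 higher and a median of -0.38. Myc, the growth-promoting transcription factor, fell from 804 and 959 to 280.4 and 334, a 2.78-fold difference (limma adjusted p = 0.0355 with 4 arrays and 0.176 with 6). Myb, which holds progenitors in division and is counted in both this list and the one before, fell from 1396 and 1515 to 489 and 657 (0.0461 with 4 arrays). Ikzf1, the lymphoid and myeloid factor Ikaros, fell from 350.3 and 257 to 107 and 106 (0.045). All 3 were low on both MK3 arrays too, at 167 and 204 for Myc, 511 and 593 for Myb and 132 and 51.6 for Ikzf1, so their MKP arrays stand apart from all 4 later ones. Kit, the stem cell factor receptor, read 249 and 338 against 153 and 133, and Cd34, a surface sialomucin of progenitors, 321 and 448 against 184 and 212. The single member higher was Mycn, a relative of Myc, at 130.4 and 239 against 435 and 318.

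DNA replication genes were lower in every tested member. All 34 differences were below 0, with a median of -0.68 and a range from -1.23 to -0.31, and 21 had an unadjusted p below 0.05 against 6.33% of all genes. None was called. The MK4 arrays lay below both MKP arrays for 30 of the 34, against 25.6% of all genes. The replicative helicase is a ring of Mcm subunits: Mcm3 read 807 and 863 on the MKP arrays against 559 and 309.9 on the MK4 arrays, Mcm5 1011 and 799.5 against 587 and 362, and Mcm6 1065 and 1094 against 703 and 568. Of the 4 other probe sets of Mcm3 1 differed by 0.07. Cdc6, which loads that ring, had the largest difference, 144 and 158 against 77.1 and 38.6 (-1.23 ± 0.35), and Cdt1, its loading partner, read 1145 and 973 against 559 and 616. Rpa2, a single-strand binding protein, read 348 and 252 against 157 and 105, and Tk1, which makes thymidine phosphate, 378 and 320.2 against 244 and 109. The second MK4 array was the lower one for most of these. Leaving it out left 8 of 34 members with an unadjusted p below 0.05 and a median of -0.54, and leaving out the first MKP array left 11, at -0.64. With all 9 arrays in the fit 7 members passed.

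Since these genes lay lower together, their RefSeq promoters (GRCm38.p6, 250 bases before to 50 after the gene start) were read for the E2F motif, the element by which G1/S genes are known to be switched. Either of the forms TTTGGCGC and TTTCGCGC, on either strand, stood in 8 of the 30 replication promoters held in the RefSeq table (26.7%). Either form stood in 1.77% of the promoters of tested genes and in 0.833% of all promoters there. For genes higher and lower by the unadjusted p the shares were 0.263% and 3.13%. The windows below are those of the helicase and loading genes among the 21, with the motif in capitals; on the strand opposite to the gene it reads GCGCCAAA or GCGCGAAA. In Mcm5 and in the upstream site of Mcm6 both forms overlap, and 1 of them is shown.

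Mcm3: ttgggaagtTTTGGCGCcaag
Mcm5: agaactttcGCGCCAAAacgtccagc
Mcm6: gcgtatgctTTTGGCGCgaaaagtgc
Mcm6: ttggacgggTTTGGCGCgaagtagct
Mcm7: gtgacgacgTTTCGCGCcaatttcgg
Cdt1: aactaccttTTTGGCGCcatggcgca

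The Mcm3 window lies at chr1:20820263-20820283 (minus strand), its motif 38 bases after the gene start. The Mcm5 window lies at chr8:75109351-75109376 (plus strand), its motif 149 bases before the gene start. The first Mcm6 window lies at chr1:128359799-128359824 (minus strand), its motif 110 bases before the gene start. The second Mcm6 window lies at chr1:128359736-128359761 (minus strand), its motif 47 bases before the gene start. The Mcm7 window lies at chr5:138171851-138171876 (minus strand), its motif 16 bases after the gene start. The Cdt1 window lies at chr8:122568038-122568063 (plus strand), its motif 32 bases after the gene start. The 3 genes with the largest differences in the list, Cdc6, Rpa2 and Tk1, held neither form in this window, which says only that these letters are not there. Rpa2 held the CCAAT box, the binding letters of NF-Y, 3 times on the opposite strand as ATTGG, and the ETS motif CCGGAAGT once, both in capitals here (chr4:132768110-132768409, plus strand):

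Rpa2: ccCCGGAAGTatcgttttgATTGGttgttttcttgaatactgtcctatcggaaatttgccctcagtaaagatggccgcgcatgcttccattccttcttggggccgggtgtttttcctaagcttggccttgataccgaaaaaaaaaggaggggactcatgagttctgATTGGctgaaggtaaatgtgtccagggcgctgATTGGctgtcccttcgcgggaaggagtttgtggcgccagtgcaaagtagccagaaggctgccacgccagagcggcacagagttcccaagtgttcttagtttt

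The CCAAT box stood in 38% of the promoters of tested genes, and the ETS motif in 8.93%.

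Mitosis and cytokinesis genes lay lower by less than replication genes: 9 of 34 had an unadjusted p below 0.05, all lower, against 6.33% of all genes, and the median was -0.31 beside the -0.68 above, a difference between lists that was not tested. Ect2, which is needed for cytokinesis, read 53.9 and 118 on the MKP arrays and 21.6 and 43.9 on the MK4 arrays, below the filter on the latter. It passed the filter through the MKP arrays alone, so the size of its difference is uncertain. Kif23, the motor of the central spindle, read 166 and 94.5 against 88.7 and 48.8, and the cyclin Ccna2 917 and 745 against 623 and 362. Without the second MK4 array 2 members of the list passed, without the first MKP array 1, without the second MKP array 4 and with all 9 arrays in the fit 0. The promoters of 29 tested members held the CHR element TTTGAA in 22 (75.9%), against 11.5% of tested genes and 18.1% of all in the table. It stood in 12.6% of genes higher and 14.5% of genes lower by the unadjusted p. In a list of D cyclins, their kinases and cell cycle brakes 2 were higher and 2 lower of 15 by the unadjusted p. The shares of all genes were 5.8% and 6.33%. Rb1, the retinoblastoma protein, read 125 and 200.3 against 325 and 343, and the inhibitor Cdkn2d 529.5 and 556 against 978 and 899.9. Cdk4, the kinase that Cdkn2d inhibits and that phosphorylates Rb1, read 1039 and 819 against 606 and 471.

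Receptor promoters were read in the same way, since that list held the most higher members. GATA motifs (AGATAA or TGATAA, either strand) stood in 6 of 22 promoters of tested receptor genes (27.3%). They stood in 9.7% of the promoters of all tested genes and 19% of all in the table. For genes higher and lower by the unadjusted p the shares were 12.4% and 11.2%, close to each other. The core of the NF-E2 and AP-1 sites, TGAGTCA, stood in 4 of the 22 (18.2%), 3.87% of tested genes and 5.17% of all. It stood in 8.16% of genes higher and 3.13% of genes lower by that p. Cd36, Gp9 and Gp1bb, the members with the largest differences in the list, held neither motif in this window. F2rl2 held both motifs, and Gp5 2 GATA motifs on the opposite strand, in capitals:

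F2rl2: gtgaggaagAGATAAaagggatat
F2rl2: ggctcagccTGAGTCAtgcacacag
Gp5: cttgactttTTATCTggtaaggtc
Gp5: gtaaggtctTTATCTtgaggatgc

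The first F2rl2 window lies at chr13:95696816-95696839 (plus strand), its motif 95 bases before the gene start. The second F2rl2 window lies at chr13:95696857-95696881 (plus strand), its motif 54 bases before the gene start. The first Gp5 window lies at chr16:30310860-30310883 (minus strand), its motif 93 bases before the gene start. The second Gp5 window lies at chr16:30310844-30310867 (minus strand), its motif 77 bases before the gene start.

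Genes of ribosome building were lower throughout. All 24 tested differences were below 0, with a median of -0.61, and 12 had an unadjusted p below 0.05, against 6.33% of all genes. Rrp9, which helps process ribosomal RNA, read 187 and 117 on the MKP arrays and 89.8 and 30.9 on the MK4 arrays. Mybbp1a, a nucleolar protein, read 598 and 525 against 346 and 226, and Fbl, the methyltransferase fibrillarin, 1159.7 and 748 against 602 and 561. The second MK4 array read lower than the first in each of them. The list median was -0.41 without the second MK4 array, -0.53 without the first MKP array and -0.65 without the second MKP array. With all 9 arrays in the fit 6 members passed.

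Of the metabolic lists, respiration had a median of -0.20 with 1 of 20 lower by the unadjusted p, against 6.33% of all genes. That gene was Dlst, of the citric acid cycle, at 429.8 and 360.3 against 242 and 239, and a second probe set of it differed by 0.05. Cholesterol synthesis separated the MK4 arrays from each other more than the stages: Sqle read 564 and 469 on the MKP arrays against 589.9 and 210.2 on the MK4 arrays, and Fdps 1848 and 1554 against 1867 and 662. None of the 16 passed, against 5.8% higher and 6.33% lower of all genes. The list median was -0.24, and it was -0.72 without the first MK4 array and 0.28 without the second. Of 17 endoplasmic reticulum genes 2 were higher by the unadjusted p, against 5.8% of all genes. The stress factor Ddit3 read 197 and 236 against 490.5 and 479. Herpud1, of protein disposal, read 280.1 and 535 against 618 and 689. None of 16 apoptosis regulators passed in either direction, against 5.8% higher and 6.33% lower of all genes, and their median was -0.02. In lists of this size a count of 0 lies near those shares.

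Markers of other blood cells were read because the sorted populations could hold such cells. In bulk samples, fewer cells of a type and less RNA per cell cannot be told apart. Neutrophil genes were lower in 12 of 15 members by the unadjusted p, against 6.33% of all genes, with all 15 differences below 0 and a median of -0.87, and their summed signal was 50683 and 41638 on the MKP arrays and 28933 and 27204 on the MK4 arrays. Ltf, the lactoferrin of secondary granules, read 2224 and 1639 on the MKP arrays, 1673 and 2539 on the MK3 arrays and 527 and 350.0 on the MK4 arrays, and fell by 2.11 on the log2 scale (limma adjusted p = 0.0286 with 4 arrays). Camp, a cathelicidin of the same granules, fell from 1721 and 1401 to 467 and 606 with 1093 and 2268 on the MK3 arrays, and Cd177, a neutrophil surface protein outside the list, from 238 and 255 to 73.9 and 75.2 with 269.5 and 285. In these genes the MK3 arrays still lay at MKP level or near it and only the MK4 arrays were low. Some enzymes of primary granules, made earlier in granulocyte life, differed by less than Ltf and Camp. The differences were -0.93 ± 0.22 for the elastase Elane, -0.78 ± 0.21 for cathepsin G (Ctsg) and -0.52 ± 0.20 for myeloperoxidase (Mpo). Ltf and Camp were named for their large differences, and Elane lay beyond the list median of -0.87. A difference between granule types was not tested. Elane was low already in MK3, at 3666 and 3315 on the MKP arrays, 1682 and 1369 on the MK3 arrays and 1589 and 2104 on the MK4 arrays. The 12 became 8 to 10 when 1 MKP or MK4 array was left out and 2 with all 9 arrays in the fit. All of these transcripts were still above the filter on both MK4 arrays.

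**Figure D4:**
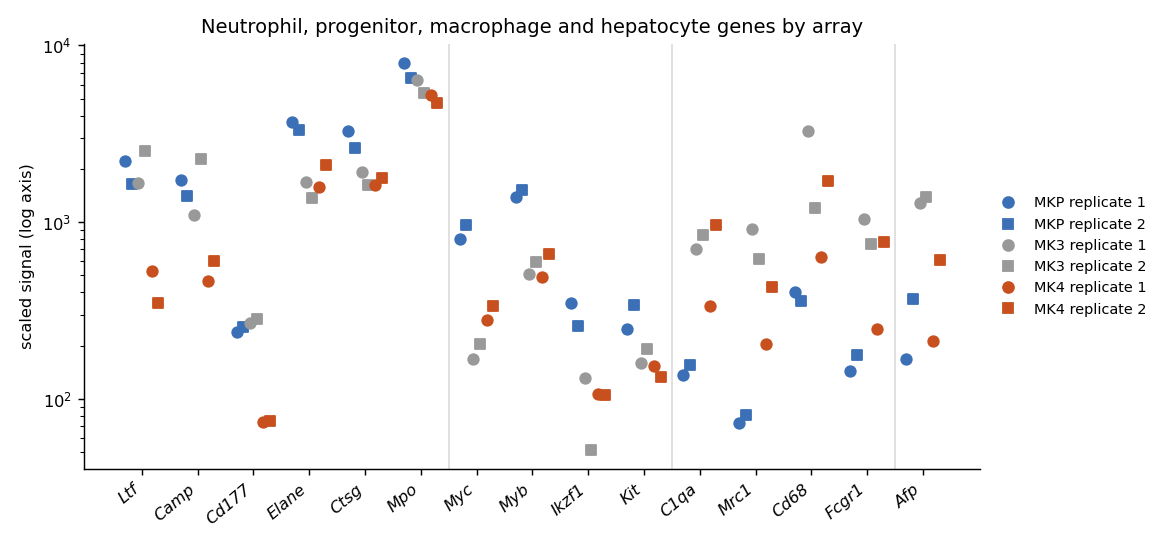
Scaled signals on a logarithmic axis, one point an array, for neutrophil, progenitor, macrophage and hepatocyte genes (left to right, separated by lines) on the MKP (blue), MK3 (grey) and MK4 (orange) arrays. The grey MK3 points of Ltf, Camp and Cd177 lie with the blue MKP points, those of Myc and Myb lie with the orange MK4 points, and those of the macrophage genes and Afp lie mostly above the blue ones.

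Macrophage genes lay the other way, with 9 of 17 higher and 1 lower by the unadjusted p, against 5.8% and 6.33% of all genes, and a median of 1.08. C1qa, a chain of complement C1q, read 136 and 155 on the MKP arrays, 708 and 844 on the MK3 arrays and 335 and 963 on the MK4 arrays, and the mannose receptor Mrc1 73.2 and 81.1 in MKP, 909 and 622 in MK3 and 203 and 428 in MK4. Cd68, a lysosomal membrane protein, read 400.0 and 359 in MKP, 3294 and 1208 in MK3 and 637 and 1699 in MK4. For all 3 the second MK4 array lay above the first, and the MK3 arrays lay above the MKP arrays. The summed signal of the list was 15722 and 13043 on the MKP arrays, 37724 and 20035 on the MK3 arrays and 15878 and 23832 on the MK4 arrays, and no marker of it was listed at 0. By this sum, which bright genes weigh most, the first MK4 array lay close to the higher MKP array and the second above it. By mean log2 level both MK4 arrays, at 8.85 and 9.75, lay above the MKP arrays, at 8.51 and 8.47. Ccr2, the chemokine receptor of inflammatory monocytes, was the member lower, at 499 and 527 against 169.9 and 304, but its other probe sets differed by -0.11 and 0.02. Without the second MK4 array the counts of the list were 5 higher and 1 lower with a median of 0.47, and without the first 10 and 0 with 1.69. Lysosomal genes followed the same arrays, 4 of 13 higher by the unadjusted p, against 5.8% of all genes, with a median of 0.58: the protease Ctsl read 1362 and 1396 on the MKP arrays, 4256 and 3320.1 on the MK3 arrays and 2298 and 5429 on the MK4 arrays. Of the lysosomal genes 1 passed without the second MK4 array, 2 without either MKP array and 7 without either MK3 array. The second MK4 array was thus high in macrophage genes and low in the replication, ribosome and cholesterol genes above, and the part of the one in the other was not tested.

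Hepatocyte genes, as a fetal liver preparation could hold, had a summed signal of 561 and 721 on the MKP arrays, 3215 and 3192 on the MK3 arrays and 458 and 1296 on the MK4 arrays. None of the 5 tested members passed, and all 5 overlapped between MKP and MK4. That rests on the MK4 pair: without the first MK4 array 4 members were higher, and without the second 1 was lower, with the median at -0.30. The albumin gene Alb read 195 and 206 in MKP, 1039 and 1006 in MK3 and 129 and 325 in MK4, and Afp, its fetal relative, 168 and 367 in MKP, 1286 and 1391 in MK3 and 213 and 609 in MK4. The counts of the small lists that follow are by the unadjusted p, beside shares of 5.8% higher and 6.33% lower over all genes. Of 8 erythroid genes 1 was higher, the erythropoietin receptor Epor, and 1 lower, the factor Klf1. Mast cell genes gave 0 of 6, and eosinophil genes 1 lower of 3 (Siglecf, at 76.4 and 79.7 against 19.02 and 23.7). Siglecf was below the filter on both MK4 arrays and passed it through the MKP arrays alone, so the size of its difference is uncertain. Lymphocyte genes gave 1 lower of 5, the cytotoxic granule protein Nkg7 at 544 and 632 against 235 and 381. In the stromal list 2 of 5 were higher, Col1a2 at 131 and 102 against 235 and 194 and the endothelial receptor Kdr at 167 and 111 against 239 and 196. Counts of 3 or fewer are easily moved: in the dense granule, transcription factor, brake, eicosanoid, respiration, endoplasmic reticulum, erythroid, lymphocyte and stromal lists at least 1 of them was 0 or 1 without a single array. The part of these cells in the differences above was not tested.

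**Figure D5:**
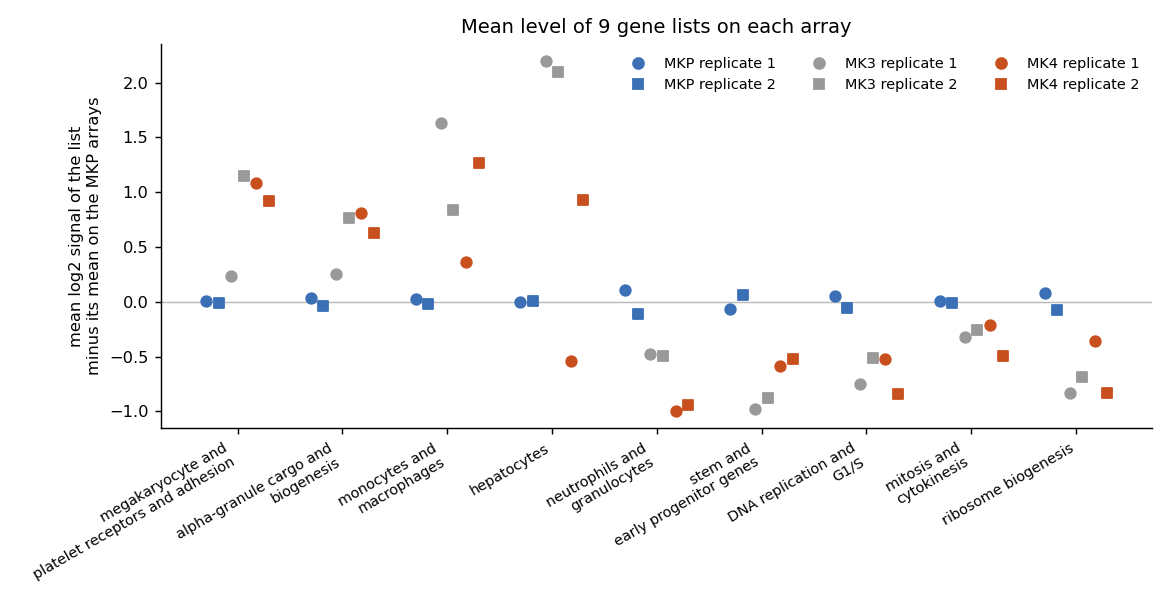
Mean log2 level of 9 gene lists (groups along the horizontal axis) on each of the 6 arrays, drawn as the distance from the mean of the 2 MKP arrays (vertical axis, log2). The MK4 arrays lie above 0 for receptors and alpha granules and below 0 for the neutrophil, progenitor, replication, mitosis and ribosome lists, and they lie apart from each other for macrophage and hepatocyte genes.

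The comparison skips the MK3 stage, and the genes can be read by where their MK3 mean lay. Of the 479 genes higher by the unadjusted p, 279 had an MK3 mean between the MKP and MK4 means, 180 above both and 20 below both. The 523 lower genes gave 315 between, 185 below both and 23 above both. Among the 39 called higher, 31 were between, 6 above both and 2 below both, and among the 17 called lower 10 were between, 4 below both and 3 above both. Since MK3 entered the spread of the first 2 sets, these counts are a description. The mean hides the distance between the MK3 arrays: the receptor list had a mean log2 level of 8.42 on the first and 9.33 on the second, against 8.19 and 8.17 in MKP and 9.26 and 9.10 in MK4. For the replication list the MK3 arrays, at 7.94 and 8.17, both lay with the MK4 arrays, at 8.17 and 7.85, and below the MKP arrays, at 8.74 and 8.64. The ribosome list gave 7.93 and 8.08 in MK3, 8.41 and 7.93 in MK4, and 8.84 and 8.69 in MKP. Growth and replication genes were thus low on both MK3 arrays, whereas platelet receptors were near the MK4 level on one of them only.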

How the data were processed

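The deposited values are probe set intensity values of single-colour arrays on a linear scale, made with MAS5 by the authors per the submitters' processing notes. Which version and settings were chosen is not stated in the labels, and detection calls did not enter the work. Of 22690 probe sets, 64 were controls, 20380 had 1 gene in the platform annotation, 691 several and 1555 none, and the RefSeq table of GRCm38.p6 gave current symbols for 20351 of those with 1 gene. The deposited trimmed means ran from 102 to 221, so each array was scaled to a common trimmed mean of 161 (2% off each end), which leaves out any difference in total RNA per cell. The fits used log2(signal + 15.2), with the 20th percentile of all scaled signals as pseudocount. Genes were kept if a probe set exceeded 46.7, the 40th percentile, on at least 2 of the 4 MKP and MK4 arrays, and the brightest probe set stood for the gene. limma 3.58.1 in R 4.3.3 (lmFit, eBayes with an intensity trend) fitted a mean per stage to the MKP, MK3 and MK4 arrays, with Benjamini-Hochberg adjustment over all genes tested. The test was checked on simulated data.

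The comparison, the gene lists, the markers and the naming rule were chosen with earlier results of these data known. The rule named the 15 largest differences each way among called genes with no overlap of arrays, the members of each list with the largest differences, and 9 lineage genes. As no gene was called in the model of 6 arrays, the first part was applied to genes with an unadjusted p below 0.05, and this choice and the descriptive use of that p were made after that count was seen. Promoters to be shown were likewise chosen through it, and so were the genes behind the motif shares of higher and lower genes. The motif shares of the lists cover all tested members with a promoter in the RefSeq table, whatever their p. Genes named beyond this rule were picked with their values in view. Alternatives changed the pseudocount, the filter, the scaling, the probe set rule, the variance model, the arrays in the fit, and left out each array in turn.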

Additional observations from a re-analysis of the deposited data

How the results depend on the processing

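No gene was called in the model of 6 arrays, and that count stayed at 0 in both directions under 12 of 19 other settings, among them both other pseudocounts, both other filters, quantile normalization, a common median, no intensity trend, a robust variance model and all 9 arrays. The 4 MKP and MK4 arrays alone gave 39 genes higher and 17 lower. Array weights gave 2 higher and 5 lower, all 7 among those 56. The mean of a gene's probe sets and every probe set on its own each gave 0 higher and 1 lower, in both cases Hmga2. At an unadjusted p below 0.05, a threshold chosen after seeing the data, 479 genes were higher and 523 lower. With 1 array left out in turn the counts ran from 0 to 41 higher and from 0 to 15 lower; without the first MK3 array they were 41 and 15, without the second 39 and 15, and without the first MK4 array 41 and 2, of which 4 of 43 were among the 56. A stage left with 1 array was assumed to vary like the others. A single MK3 array adds no spread, so without either MK3 array the spread came from the MKP and MK4 pairs, as in the fit of 4 arrays. Of 128 named genes, 122 kept their sign in every setting that tested them, which was all 19 save for the stricter filter, which 114 passed. The other ones were Fli1, Fdps, Sqle, Cpa3, Afp and Ambp, and none that was called turned its direction. The median gene shifted by -0.01 under quantile normalization and by -0.05 under a common median. The cause of the other differences between settings was not tested. Signals below the filter limit what can be said of dim genes. No paired analysis was possible because the labels give the MKP and MK4 arrays no shared replicate numbers.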

Other observations

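Several of the 56 genes called with 4 arrays lay outside the lists and were chosen for this paragraph after their values were seen. Hmox1, which breaks down heme, rose from 431 and 482 on the MKP arrays to 1342 and 1610.0 on the MK4 arrays and read 3001 and 2036 on the MK3 arrays (limma adjusted p = 0.0286 with 4 arrays). Srxn1, which repairs oxidised peroxiredoxins, rose from 193 and 253 to 772 and 852, and its 3 other probe sets differed by 1.62, 0.87 and -0.02. Slc6a4, the serotonin transporter that fills platelets, rose from 514 and 484 to 1414 and 1612 with 709 and 2951 on the MK3 arrays. Plek, the protein kinase C substrate pleckstrin, rose from 1255 and 1368 to 3189 and 2842, and its 2 other probe sets differed by 1.18 and 1.43. Npy, a neuropeptide, rose from 269.7 and 191 to 688 and 604, and the growth arrest gene Gadd45g from 126 and 111 to 352 and 419.9. In each of these 6 genes both MK4 arrays lay above both MKP arrays, as in every gene called higher, so this adds nothing to the call.

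Lpl, lipoprotein lipase, rose from 286 and 293 to 698 and 979.6 and was far higher on the MK3 arrays, at 3653 and 3119.5, as were several macrophage genes. Igfbp4, which binds insulin-like growth factors, fell from 1918 and 2163 to 884 and 865 (limma adjusted p = 0.045 with 4 arrays), and its 5 other probe sets differed by between -1.22 and -2.33. Pglyrp1, a peptidoglycan receptor of neutrophil granules, fell from 734 and 628 to 230.3 and 169, with 389 and 603 on the MK3 arrays, and the cystatin Stfa3 from 1040.5 and 1307 to 496 and 389, with 899 and 1287.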
